A study of Mus musculus with 6 samples.

Results

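The mouse genes Stat5a and Stat5b were examined for sequencing coverage at their CpGs in CD8+ T cells that did or did not carry a human STAT5B transgene. All CpGs listed in at least 1 library between the annotated ends of both genes were taken, which gave 366 CpGs out of 4175106 in the whole data set. Stat5b held 245 of them and Stat5a 121, and 170 lay in an exon of some annotated transcript and 196 in introns. The genes were chosen by their coverage over WT and by the methylated share of the reads there, so that both values against WT are given as a description without a test. In GRCm38, Stat5b (ENSMUSG00000020919.11) lies on the minus strand at chr11:100780731-100850724 and Stat5a (ENSMUSG00000004043.14) on the plus strand at chr11:100859351-100885169, with their starts facing each other. A further 29 listed CpGs between the genes were kept apart.

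STAT5A and STAT5B are closely related transcription factors that are phosphorylated by JAK kinases once a cytokine such as IL-2, IL-7 or IL-15 binds its receptor, and that then pair through their SH2 domains and bind DNA in the nucleus. In T cells they act in survival and proliferation. N642H is a substitution in the SH2 domain of human STAT5B that is found in leukemias and lymphomas of T cells. Both mouse genes arose by duplication and still share long stretches of coding sequence.

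Reduced representation bisulfite sequencing (RRBS) was applied to DNA from lymph node (LN) CD8+ T cells, enriched with magnetic beads, of C57BL/6N mice aged 13 weeks, and 2 libraries were made for each of 3 genotypes. WT mice carried no transgene, hSTAT5B mice (hSTAT5B +/T) carried human STAT5B, and hSTAT5BN642H mice (hSTAT5B N642H +/T) carried human STAT5B with the N642H substitution. The authors call hSTAT5BN642H mice of this age diseased where they describe the cells taken for RNA sequencing, so that disease and genotype cannot be told apart. Both transgenes were built into a hematopoietic vector with Vav1 regulatory sequence, and each genotype stands for 1 selected line, whose insertion site and copy number were not tested here. RRBS cuts DNA with MspI at CCGG and reads the fragment ends after bisulfite conversion, so that most covered CpGs lie near a CCGG. The libraries held 43291086 to 67007186 reads at 2597893 to 3445555 CpGs, and 3492 to 6660 of these reads were on CpGs of Stat5a and Stat5b. A read that spans several CpGs is counted at each of them, and coverage is given as RPM, reads per 1000000 of all reads at CpGs in that library. Of the 366 CpGs, 181 were listed in all 6 libraries. The promoter of Cd8b1, which encodes a chain of the CD8 receptor, was 8.73% to 38.9% methylated and that of the B cell gene Cd79b 32.6% to 87.2%, whereas the promoter of the T cell gene Cd3g was also 68.3% to 78.2% methylated. The Cd8a promoter had 0 to 4 reads and the Cd4 promoter 0 to 18, too few for a check. The level at Cd8b1 was highest in both WT libraries, and the part of other cells in the results was not tested.

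Coverage rose over WT in 5 short exonic stretches, which are shown because all CpGs above WT lie in them. Sequences are from GRCm38, read 5′ to 3′ on the strand of the gene, and capitals mark the CpGs with coverage over WT in both transgenic genotypes. Each stretch contains 1 CCGG. In exons 7 and 8 of Stat5b the stretches are the same, base for base, as those in exons 8 and 9 of Stat5a. The first spans chr11:100798235-100798329 in Stat5b and chr11:100874395-100874489 in Stat5a, the next chr11:100797742-100797779 and chr11:100874945-100874982, and the one in exon 13 of Stat5b chr11:100790824-100790872. Exon numbers are those of transcripts Stat5b-201 and Stat5a-201.
Stat5b exon 7 and Stat5a exon 8: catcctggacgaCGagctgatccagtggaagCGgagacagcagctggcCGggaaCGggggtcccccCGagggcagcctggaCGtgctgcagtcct
Stat5b exon 8 and Stat5a exon 9: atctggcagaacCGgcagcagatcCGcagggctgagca
Stat5b exon 13: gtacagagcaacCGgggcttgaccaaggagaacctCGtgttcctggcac

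Around the CCGG of the first pair the genes are identical over 251 bases, which takes in all 152 bases of the exon. Around that of the next pair they are identical over 90 bases. The Stat5b exon 13 stretch has a counterpart in exon 14 of Stat5a at chr11:100879692-100879740, which differs at 1 of 49 bases (G27A, counted from 1 at the 5′ end, Stat5b first). Around its CCGG the genes are identical over 89 bases, with 74 on the 5′ side and 11 on the 3′ side. No CpG of the counterpart was above WT, though the one on the 3′ side had too few reads for a comparison. The counterpart is shown with the CpGs that match those above in capitals.
Stat5a exon 14: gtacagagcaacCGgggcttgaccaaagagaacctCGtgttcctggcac

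A CpG was counted as above WT where both libraries of a transgenic genotype had at least 10 reads and more than 2 times the scaled coverage of the higher WT library. In hSTAT5B, 18 of the 103 CpGs with enough reads met this rule, and over all CpGs of the data set 0.852% did. In hSTAT5BN642H, 18 of 97 met it, against 1.6% over all CpGs. The same 18 CpGs were above WT in both genotypes, 10 in Stat5b and 8 in Stat5a. All 18 were exonic, out of 56 exonic CpGs with enough reads in each genotype, and 0 of 47 intronic CpGs in hSTAT5B and 0 of 41 in hSTAT5BN642H met the rule. These shares follow from how the genes were chosen. Without WT replicate 2 the count in hSTAT5B was 31. Just inside the threshold, the lower hSTAT5B library was at 2.25 times the higher WT library at position 100797766 in exon 8 of Stat5b, and the lower hSTAT5BN642H library at 2.41 times. Just outside it were intronic CpGs of Stat5b, at 1.44 times (position 100802660) in hSTAT5B and 1.27 times (position 100812520) in hSTAT5BN642H.

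**Figure D1:**
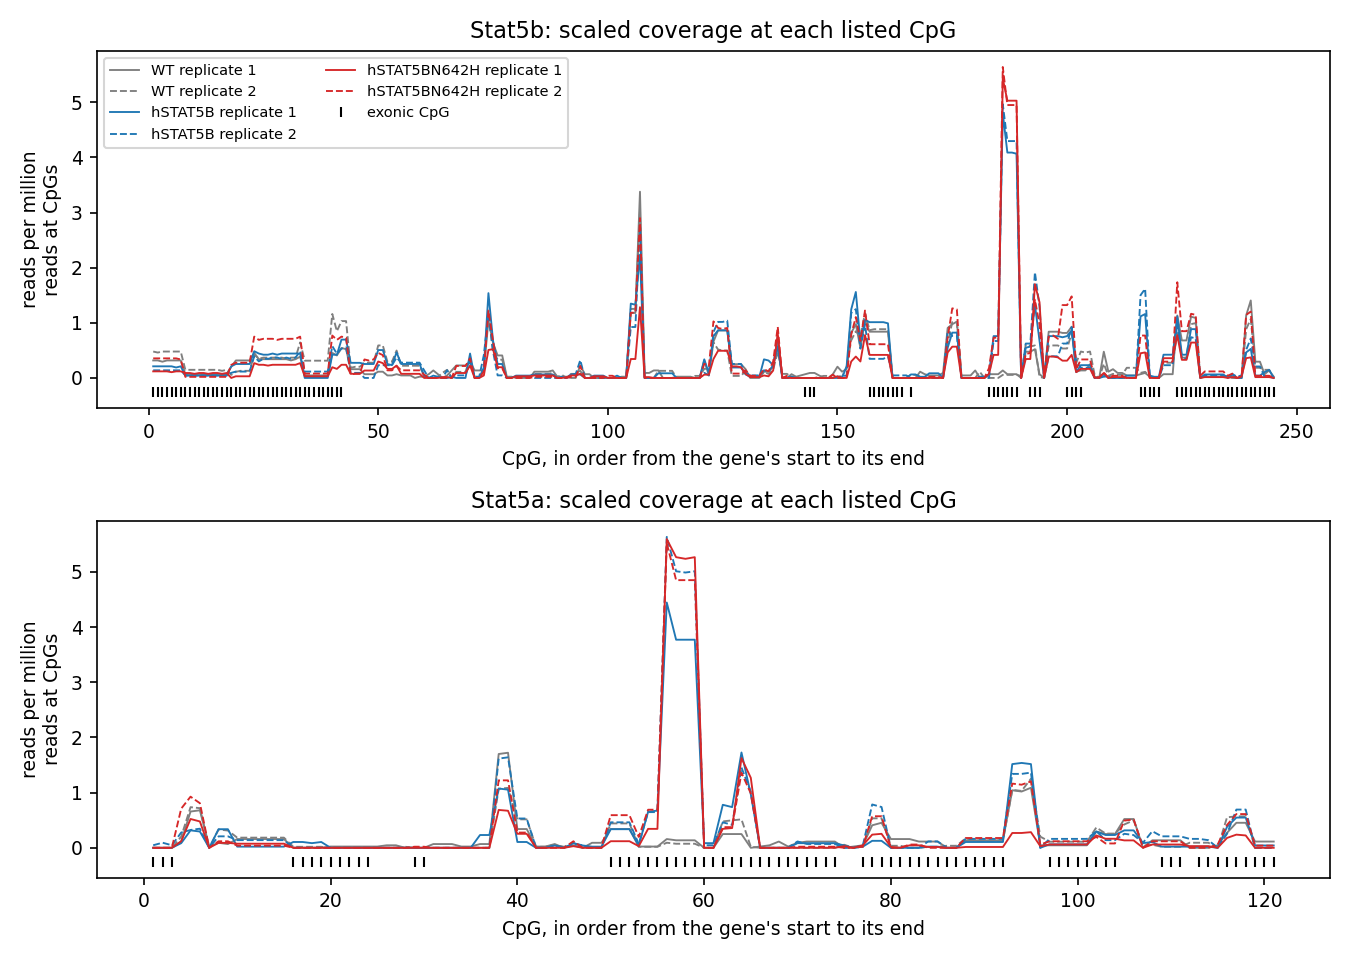
RPM (y axis) at each listed CpG of Stat5b (top, 245 CpGs) and Stat5a (bottom, 121 CpGs), in order from the start of the gene (x axis), with 1 line per library and a tick for each exonic CpG. All 4 transgenic libraries rise to 4.45 to 5.64 RPM in 1 peak of each gene, in exon 7 of Stat5b and exon 8 of Stat5a, where both WT libraries stay at or below 0.159.

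Exon 7 of Stat5b and exon 8 of Stat5a, which lie upstream of the sequence for the SH2 domain, had the highest coverage over WT. At the CpG of the CCGG in Stat5b (position 100798280) there were 6 and 3 reads in WT, 228 and 215 in hSTAT5B, and 364 and 286 in hSTAT5BN642H. At the matching CpG of Stat5a (position 100874443) there were 7 and 5 reads in WT, 211 and 244 in hSTAT5B, and 375 and 280 in hSTAT5BN642H. No transgenic library came near a WT library at either CpG. Averaged over the 6 CpGs of the stretch in Stat5b, coverage was 0.0581 RPM per CpG in WT. It rose to 3.15 ± 0.07 (SD, n = 2) with hSTAT5B and to 3.61 ± 0.07 (SD, n = 2) with hSTAT5BN642H. In Stat5a the WT level was 0.0802, that with hSTAT5B 3.25 ± 0.57 (SD, n = 2) and that with hSTAT5BN642H 3.63 ± 0.07 (SD, n = 2). These levels were 54.2 and 62.1 times WT in Stat5b and 40.6 and 45.2 times WT in Stat5a, ratios that rest on at most 7 WT reads at any CpG.

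Both genes took nearly equal numbers of reads where their sequence is the same. Summed over the 6 CpGs, Stat5b and Stat5a had 881 and 811 reads in hSTAT5B replicate 1, 831 and 950 in replicate 2, 1431 and 1478 in hSTAT5BN642H replicate 1, and 1113 and 1088 in replicate 2. A read inside the identical bases cannot be told apart between Stat5a and Stat5b, and how such reads were placed is not given in the sources used here, so that the values of the pair are best read together.

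Within the stretch, the sides of the CCGG were unequal. On the 3′ side, at position 100798247 of Stat5b, hSTAT5B had 193 and 186 reads and hSTAT5BN642H 337 and 251, against 3 and 3 in WT. On the 5′ side, at position 100798316, hSTAT5B had 36 and 29 reads and hSTAT5BN642H 28 and 37, against 3 and 0 in WT. Stat5a showed the same order, with 179 to 353 reads on the 3′ side (position 100874476) and 23 to 35 on the 5′ side (position 100874407) in the transgenic libraries.

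Exon 8 of Stat5b and exon 9 of Stat5a had a smaller difference from WT, and only 3′ of their CCGG. At the CpG 12 bases into the 3′ side, Stat5b (position 100797754) had 3 and 1 reads in WT, 32 and 56 in hSTAT5B, and 92 and 49 in hSTAT5BN642H. The matching CpG of Stat5a (position 100874969) had 0 and 1 reads in WT, 46 and 44 in hSTAT5B, and 85 and 50 in hSTAT5BN642H. On the 5′ side, 19 bases from the CCGG, coverage was not above WT. Stat5b had 21 and 31 reads there in WT, 27 and 27 in hSTAT5B, and 23 and 23 in hSTAT5BN642H (position 100797785), and per library total both hSTAT5BN642H libraries (0.343 and 0.454 RPM) were below both WT libraries (0.476 and 0.571 RPM). Stat5a had 11 and 27, 35 and 18, and 24 and 19 (position 100874938), where the genotypes overlapped in RPM too. At the CCGG itself, which is read from both sides, Stat5b had 23 and 32 reads in WT and 63 to 114 in the transgenic libraries. Over the stretch, hSTAT5B was at 4.35 and hSTAT5BN642H at 4.56 times WT in Stat5b, and at 6.60 and 6.69 times WT in Stat5a.

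Exon 13 of Stat5b was the only stretch above WT in 1 gene alone. At position 100790836 there were 4 and 6 reads in WT, 55 and 70 in hSTAT5B, and 31 and 39 in hSTAT5BN642H. At the CCGG (position 100790859) there were 3 and 5, 53 and 65, and 30 and 39 reads. Here the hSTAT5B libraries were the highest and did not overlap with the hSTAT5BN642H libraries, and the mean per CpG was 14.9 times WT in hSTAT5B and 6.78 times WT in hSTAT5BN642H. In Stat5a exon 14, the CpG at the same place 3′ of the CCGG (position 100879727) had 7 and 2 reads in WT, 0 and 0 in hSTAT5B, and 1 and 0 in hSTAT5BN642H, too few for a comparison. The CCGG there (position 100879704) had 20 and 29, 6 and 32, and 17 and 29 reads, which overlapped between the genotypes.

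**Figure D2:**
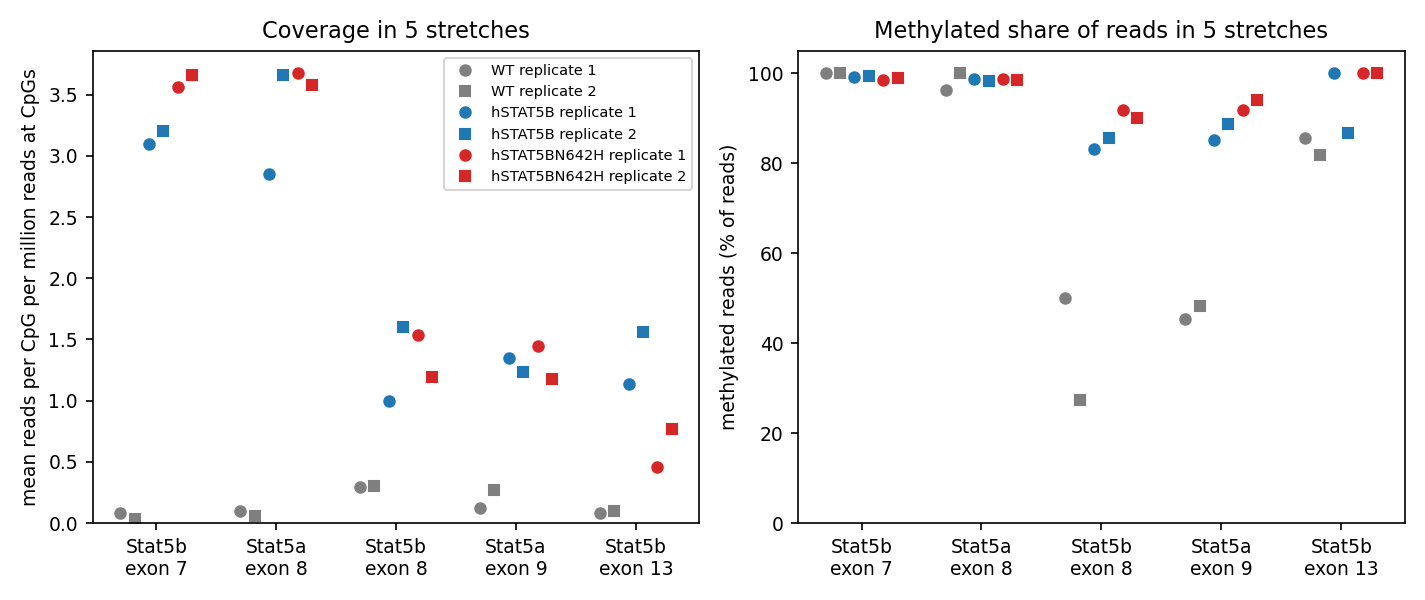
Mean RPM per CpG (left) and methylated reads as a percentage of reads (right) in the 5 stretches (x axis), with 1 point per library, a circle for replicate 1 and a square for replicate 2. WT is lowest in coverage in every stretch, and exon 13 of Stat5b is the one where hSTAT5B is above hSTAT5BN642H in both libraries. WT is least methylated in exon 8 of Stat5b and exon 9 of Stat5a, and also in exon 13 of Stat5b, there over 7 and 11 reads.

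No other exon held a CpG above WT. Of the 39 exons of both transcripts, 25 had a listed CpG, 19 held a CCGG, and 5 held CpGs above WT, so that 14 exons with a CCGG had none. These 14 include exons with too few reads to meet the rule. Exons 1, 2, 3, 15 and 19 of Stat5a had only 0 to 13 reads per library. Exon 1 of Stat5b had 42 listed CpGs, with 9.91 and 14.6 RPM in WT, 9.48 and 8.27 in hSTAT5B, and 5.24 and 14.5 in hSTAT5BN642H. Exon 16 of Stat5b, which holds the mouse codon matching the residue changed in N642H (chr11:100787360-100787362), had 4.69 and 3.52 in WT, 3.73 and 3.14 in hSTAT5B, and 2.72 and 5.74 in hSTAT5BN642H. Its 5 listed CpGs did not cover the codon, the nearest being 35 bases away, so that these files hold no read count at the mutated site. The window from chr11:100787298 to 100787374 is shown with its 3 listed CpGs in capitals and the codon at bases 13 to 15, as a stretch with a CCGG and ample reads whose coverage did not rise.
Stat5b exon 16: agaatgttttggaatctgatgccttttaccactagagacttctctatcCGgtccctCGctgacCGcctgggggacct

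Without the 18 CpGs, the exons of Stat5b had 25.1 and 28.0 RPM in WT, 22.7 and 18.1 in hSTAT5B, and 12.4 and 30.5 in hSTAT5BN642H. The introns of Stat5b had 32.2 and 32.5 in WT, 33.8 and 27.9 in hSTAT5B, and 17.4 and 32.3 in hSTAT5BN642H. Those of Stat5a had 11.9 and 11.5 in WT, 9.97 and 11.8 in hSTAT5B, and 4.88 and 10.7 in hSTAT5BN642H. The hSTAT5BN642H replicate 1 library was the lowest in all 3, although it was the deepest of the series. Thus intron coverage was 0.93 ± 0.11 (SD, n = 2) times WT in Stat5a and 0.95 ± 0.13 (SD, n = 2) times in Stat5b for hSTAT5B, and 0.67 ± 0.35 (SD, n = 2) and 0.77 ± 0.32 (SD, n = 2) times for hSTAT5BN642H. The CpGs between the genes were at 4.47 and 4.36 RPM in WT and 2.19 to 4.07 in the transgenic libraries.

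**Figure D3:**
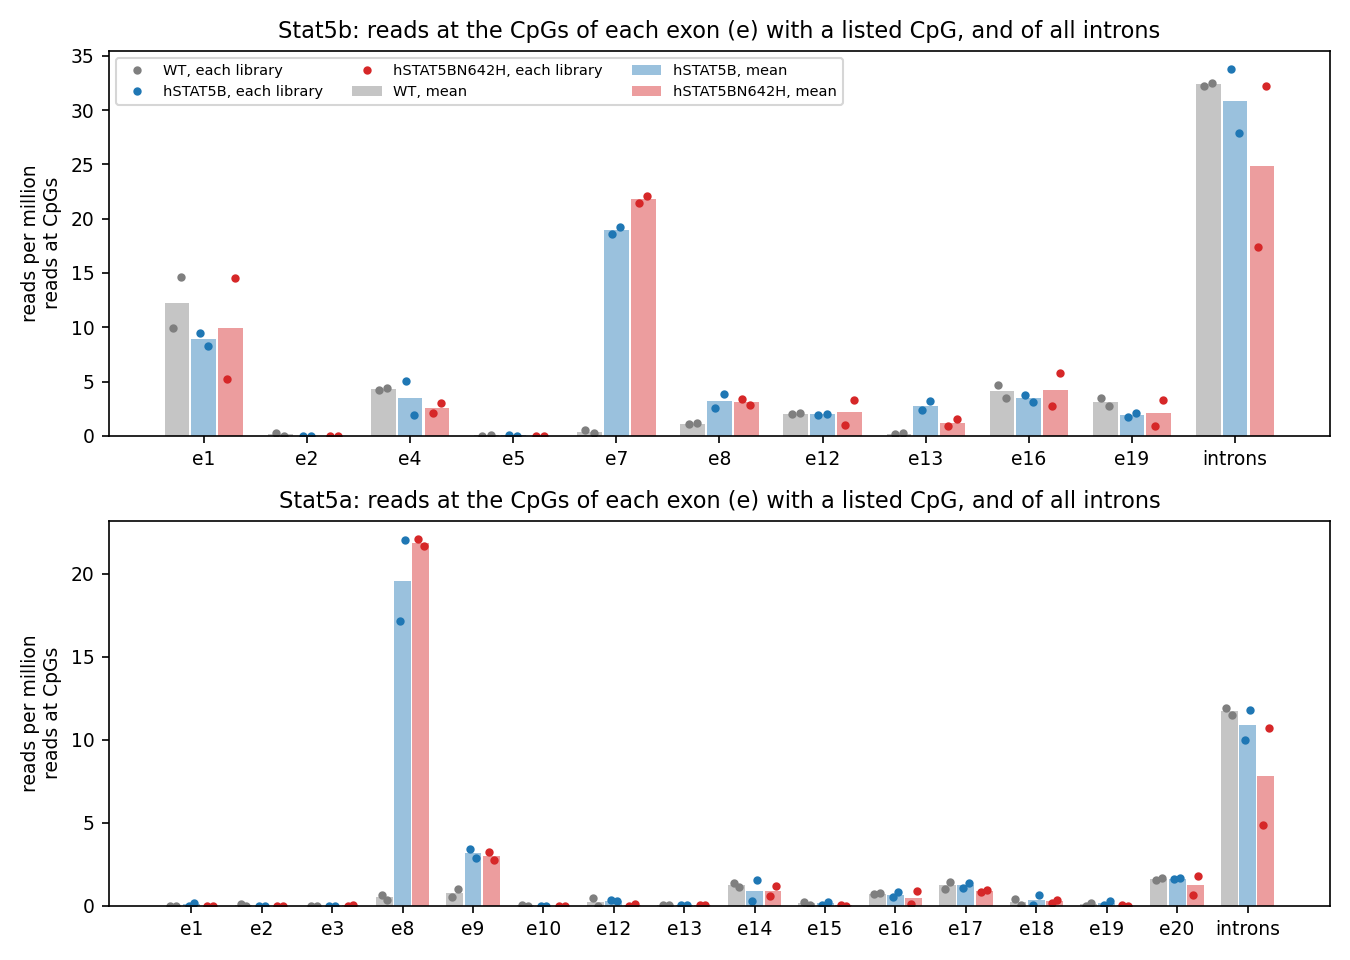
RPM (y axis), summed over the listed CpGs of each exon with a listed CpG and over all introns, for Stat5b (top) and Stat5a (bottom). Bars are genotype means and points single libraries. Exon 7 of Stat5b and exon 8 of Stat5a are at 17.1 to 22.1 in the transgenic libraries and at 0.221 to 0.635 in WT, and hSTAT5BN642H replicate 1 is low in the introns.

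Taken over all exonic CpGs, Stat5a had 8.66 and 8.60 RPM in WT, 27.0 and 34.0 in hSTAT5B, and 28.5 and 31.9 in hSTAT5BN642H, which is 3.53 ± 0.57 (SD, n = 2) and 3.50 ± 0.28 (SD, n = 2) times WT. Stat5b had 26.3 and 29.0, 45.5 and 43.6, and 37.7 and 56.4, which is 1.61 ± 0.05 (SD, n = 2) and 1.70 ± 0.48 (SD, n = 2) times WT. All transgenic libraries were above both WT libraries for both genes. Every one of the 18 CpGs was at most 36 bases from the cytosine of a CCGG, but 83.1% of all 366 CpGs were within 50 bases of one, so that this distance hardly sets them apart.

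**Figure D4:**
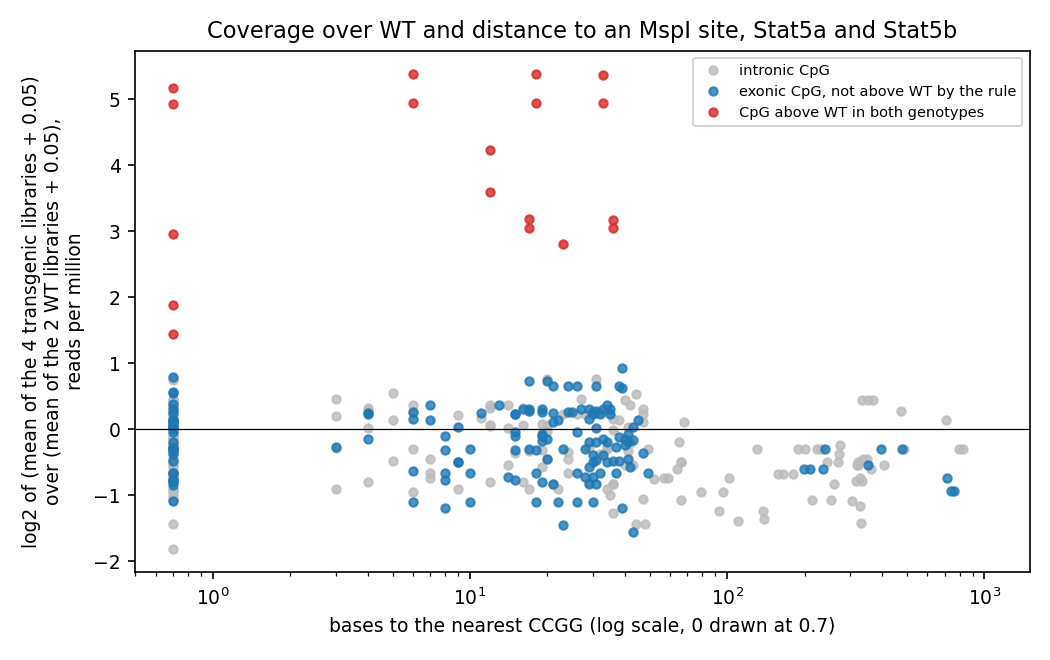
Log2 of coverage in the 4 transgenic libraries over that in the 2 WT libraries, with 0.05 RPM added to each mean (y axis), against the distance of each CpG of Stat5a and Stat5b from the nearest CCGG in bases (x axis, log scale). The 18 CpGs above WT, in red, lie at 0 to 36 bases, where many exonic and intronic CpGs lie around 0.

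Reads at the 18 CpGs were nearly all methylated in the transgenic libraries. The share of methylated reads was 97.4% (1971 of 2023) and 96.6% (2089 of 2162) in hSTAT5B and 97.8% (3297 of 3370) and 98.1% (2472 of 2519) in hSTAT5BN642H. In WT it was 77.2% (71 of 92; 95% Wilson interval 67.6 to 84.6) and 60.6% (63 of 104; 51.0 to 69.4). The widest interval in a transgenic library was 95.8% to 97.3%, in hSTAT5B replicate 2. These intervals cover counting error only and are too narrow, because 1 read is counted at several CpGs and no molecular identifiers were used. Pooled over the 18 CpGs, both hSTAT5BN642H libraries were above both hSTAT5B libraries, with a difference of 0.957 percentage points (98.0% against 97.0%). The same order was seen in exon 8 of Stat5b and exon 9 of Stat5a. In exon 7 of Stat5b it was the opposite, with 99.2% and 99.3% in hSTAT5B and 98.5% and 99.0% in hSTAT5BN642H. The genotypes overlapped in exon 8 of Stat5a. With 2 libraries per genotype, the pooled order is too little to settle a difference.

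The unmethylated WT reads were mostly at the CCGG of exon 8 of Stat5b and of exon 9 of Stat5a, the only CpGs of the 18 with 10 or more reads in both WT libraries. At position 100797766 of Stat5b, 10 of 23 reads (43.5%, 95% Wilson interval 25.6 to 63.2) and 8 of 32 (25%) were methylated in WT, 47 of 63 (74.6%) and 63 of 83 (75.9%) in hSTAT5B, and 98 of 114 (86.0%) and 60 of 72 (83.3%) in hSTAT5BN642H. At position 100874957 of Stat5a, 5 of 11 and 13 of 28 were methylated in WT, 63 of 82 and 53 of 63 in hSTAT5B, and 94 of 109 and 62 of 69 in hSTAT5BN642H. In exon 7 of Stat5b, all of the 21 and 12 reads in WT were methylated, as were 98.5% to 99.3% of those in the transgenic libraries. After the scaled WT reads were subtracted, the methylated share of the remaining reads was 98.3% ± 0.743 (SD, n = 2) for hSTAT5B, against 99.2% ± 0.232 (SD, n = 2) for hSTAT5BN642H. This is an estimate, since at position 100797766 alone the subtraction gave 93.1% to 115%, beyond the possible range. In exon 13 of Stat5b, the hSTAT5B replicate 2 library stood apart with 86.7%, against 100% in the other 3 transgenic libraries. WT was at 85.7% and 81.8% there, over only 7 and 11 reads.

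Coverage was next compared between hSTAT5BN642H and hSTAT5B, a contrast that the choice of the genes did not use. With limma over 15300 genes, on log2(exonic RPM + 0.5), 0% were called at an adjusted p under 0.05, and 1264 had an unadjusted p under 0.05. Neither Stat5a nor Stat5b was called. The difference was -0.00 ± 0.19 (SE) on the log2 scale for Stat5a (adjusted p = 0.995) and 0.05 ± 0.22 (SE) for Stat5b (adjusted p = 0.964), and the median over all genes was 0.11. With median-of-ratios scaling the sign for Stat5b turned, to -0.07. Single exons were then tested in the same way, a test that was added after the data had been seen. Of 23773 exons, 0% were called and 1895 had an unadjusted p under 0.05. Exon 13 of Stat5b was lower in hSTAT5BN642H by a log2 difference of -0.93 ± 0.27 (SE), with an adjusted p of 0.535 from limma. Exon 7 of Stat5b was at 0.20 ± 0.26 (SE) and exon 8 of Stat5a at 0.17 ± 0.26 (SE), with adjusted p-values of 0.872 and 0.897 from limma.

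Methylation of the promoters and introns, which the choice of the genes did not use, did not pass the test in any contrast. Over 45877 promoters, exon sets and intron sets, limma on log2 odds of methylated reads called 0% in hSTAT5BN642H against WT, in hSTAT5B against WT and in hSTAT5BN642H against hSTAT5B, with 3845, 3027 and 3077 features at an unadjusted p under 0.05. The Stat5b promoter was nearly free of methylation, with 4.43% and 1.28% in WT, 1.36% and 2.45% in hSTAT5B, and 0.475% and 1.18% in hSTAT5BN642H, over 613 to 1326 reads. On the log2 odds scale, its difference from WT was -1.51 ± 0.71 (SE) in hSTAT5BN642H (adjusted p = 0.622; -0.61 without WT replicate 1 and -2.41 without WT replicate 2) and -0.36 ± 0.71 (SE) in hSTAT5B (adjusted p = 0.964). The Stat5a promoter was at 14% and 12.8% in WT, 19.0% and 30.2% in hSTAT5B, and 22.2% and 12.3% in hSTAT5BN642H, over 116 to 211 reads. Its difference from WT was 1.02 ± 0.47 (SE) in hSTAT5B (adjusted p = 0.793) and 0.37 ± 0.47 (SE) in hSTAT5BN642H (adjusted p = 0.856). The introns of Stat5b were 50.9% to 59.5% methylated and those of Stat5a 46.4% to 58.4%, with WT libraries at both the highest and, for Stat5a, the lowest value. The Stat5a exons were at 91.6% and 92.5% in WT and 94.5% to 97.3% in the transgenic libraries, and the Stat5b exons at 61.1% and 46.9% in WT and 73.1% to 84.0%, values that include the 18 CpGs and are given as a description.

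To find the genes most like Stat5a and Stat5b, all 15300 genes were ranked by the lowest of the 4 transgenic libraries over the higher WT library in exonic RPM, with 0.5 added to each. Stat5a ranked 1, at 3 times, and was the only gene over 2. Vav1 ranked 2, at 1.75, followed by Cd300lb (1.49), Olfr403 (1.42), Sfi1 (1.42) and Mamld1 (1.39). Stat5b ranked 22, at 1.29. Of its 95 exonic CpGs, 39 in hSTAT5B and 40 in hSTAT5BN642H had enough reads, and 10 were above WT in both.

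**Figure D5:**
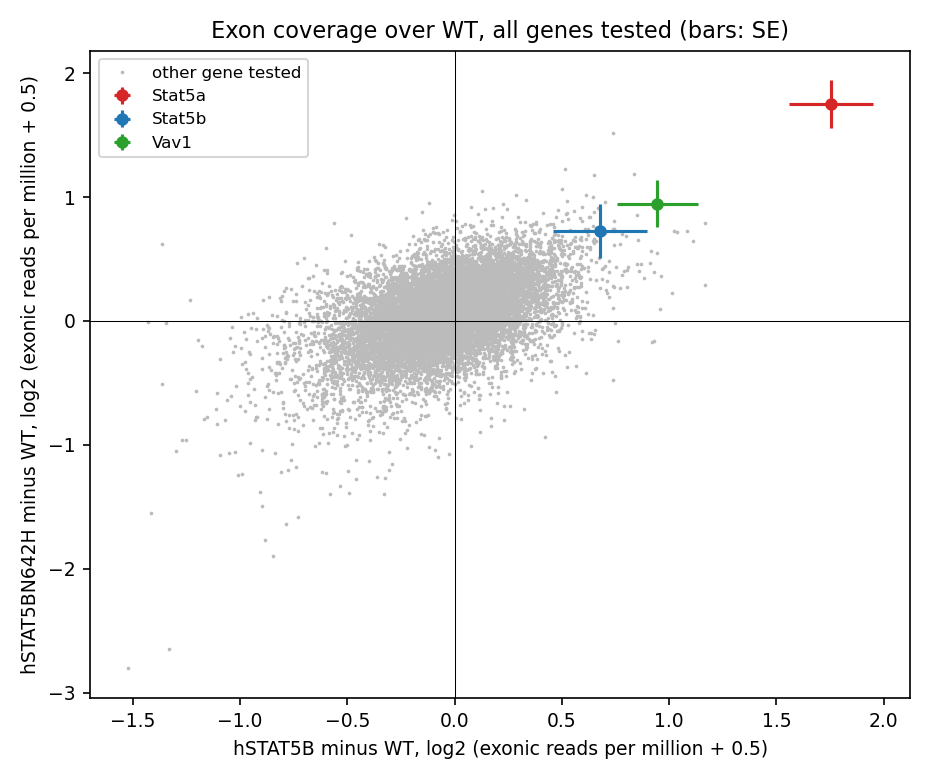
Difference from WT in log2(exonic RPM + 0.5) for hSTAT5B (x axis) and hSTAT5BN642H (y axis), with 1 point per gene for 15300 genes and SE bars for 3 of them. Both axes use the same WT libraries. Stat5a lies apart at 1.75 on both axes, Vav1 is at 0.94 and 0.95, and Stat5b is at 0.68 and 0.73.

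Vav1, which encodes a signaling protein of blood cells and gave the vector its regulatory sequence, had coverage over WT in its 5′ part. Of 43 CpGs with enough reads in the gene and the 5000 bases before it, 18 were above WT in both genotypes, at -2250 to 11617 bases from the start, and 4 of them were exonic. At these CpGs, coverage per CpG was 0.579 and 0.586 RPM in WT, 9.47 and 9.49 in hSTAT5B, and 8.34 and 7.83 in hSTAT5BN642H. The methylated share there was 6.74% and 7.68% in WT, 22.8% and 21.4% in hSTAT5B, and 16.9% and 17.8% in hSTAT5BN642H, far below that at the 18 CpGs of Stat5a and Stat5b in the same libraries. The 18 CpGs fell into 2 sets. At 12 of them 0.344% to 14.3% of reads were methylated in the transgenic libraries, and at the other 6, at -2250, -2225, 329, 353, 837 and 872 bases from the start and all outside exons, 47.5% to 99.3%. At 329 bases, 221 of 224 and 148 of 154 reads were methylated in hSTAT5B and 294 of 305 and 152 of 156 in hSTAT5BN642H, against 0 of 2 and 0 of 5 in WT. Cd4, whose human counterpart is named in the vector, had 4.19 and 2.76 exonic RPM in WT and 1.80 to 4.24 in the transgenic libraries. Human STAT5B sequence was not used here, and whether the reads in Stat5a, Stat5b and Vav1 came from the transgene was not tested.

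Other genes of the pathway were compared in the same ways. Of 27 listed genes, 24 passed the filter, with 4 of 5 other STAT genes, 4 of 4 JAK kinases, 5 of 7 cytokine receptor chains, 4 of 4 feedback inhibitors and 7 of 7 STAT5 target genes. Over all 15300 genes, only 1, Stat5a, was over 2 times WT in all transgenic libraries. Stat5b was at 1.29, so that a gene under 2 can still hold a stretch above WT. None of the 24 pathway genes was over 2, and their values lay between 0.550 and 1.10. Their median log2 difference from WT was -0.08 in hSTAT5B and 0.08 in hSTAT5BN642H, beside -0.03 and 0.09 over all genes. Single CpGs of the 27 genes were also counted, after the data had been seen. Of those with enough reads, 10 of 677 (1.48%) were above WT in hSTAT5B and 25 of 939 (2.66%) in hSTAT5BN642H. In the 6 neighbouring genes, 0 of 139 were above WT in hSTAT5B and 5 of 173 (2.89%) in hSTAT5BN642H, none in both. Over all CpGs of the data set with enough reads, the shares were 0.852% in hSTAT5B and 1.6% in hSTAT5BN642H. In the comparison of hSTAT5BN642H with hSTAT5B, limma called 0 of 24, with 3 at an unadjusted p under 0.05, beside 1264 of 15300 over all genes. The neighbours, the 3 nearest protein-coding genes on each side of the pair, were Kcnh4, Hcrt, Ghdc, Stat3, Cavin1 and Atp6v0a1, of which all but Hcrt passed the filter, and they lay between 0.664 (Atp6v0a1) and 0.93 (Cavin1). Stat3, which overlaps the end of Stat5a on the other strand, was at 0.754.

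Methylation was also tested at 68 promoters, exon sets and intron sets of 25 pathway genes, and limma called 0 in each contrast. At an unadjusted p under 0.05 there were 5 in hSTAT5BN642H against WT, all lower, 3 in hSTAT5B against WT, and 5 in hSTAT5BN642H against hSTAT5B. These are 7.35%, 4.41% and 7.35% of the 68, beside 8.38%, 6.60% and 6.71% over all features.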

How the data were processed

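RRBS files of 6 libraries were used, 2 per genotype. The authors trimmed the reads with Trimmomatic and aligned them to GRCm38 (mm10) with BSMAP in RRBS mode (submitters' processing notes and methods), and no version is given in the sources used here. The deposited files give, for every CpG, methylated and total reads as raw counts, and a score, which the authors set at the methylated share scaled to 1000 and which only served to check the counts. Positions are those of the cytosine. All CpGs were read against GRCm38.p6 and GENCODE M21. Reads were scaled to the library total, and a CpG not listed counted as 0.

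The genes and the gene lists were chosen with earlier results of these data known. Named genes were Stat5a and Stat5b, the 5 other genes most like them in coverage, Vav1 and Cd4, 3 neighbours on each side, and STAT, JAK, receptor, feedback and target genes as counts. The 5 genes with the smallest adjusted p in the coverage test were not called and are not named. Results for a marker gene and for single pathway genes are not all reported here. CpGs above WT were counted at 2 times the higher WT library and 10 reads.

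All 6 libraries entered a single limma model, with p-values adjusted after Benjamini-Hochberg, for coverage over genes with a mean of at least 1 RPM and for methylation over features with at least 3 CpGs and 20 reads in every library, with 1 added to both counts. Promoters ran from 1000 bases before to 500 after each start. The code was tested on simulated data. Labels do not say whether libraries of 1 genotype are from separate mice, and p-values measure the spread between these libraries only. Alternatives covered scaling, pseudocount, filters, trend, genotypes in the model, replicate block and leaving out each library. Tests were run in R 4.3.3 with limma 3.58.1, and tables and plots made in Python 3.11.15 with pandas 2.3.3, scipy 1.17.1, matplotlib 3.10.9 and numpy 2.4.6.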

Additional observations from a re-analysis of the deposited data

How the results depend on the processing

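The 18 CpGs above WT stayed at 16 to 18 in both genotypes under the other totals, folds and read minimums, and leaving out single libraries gave 18 to 31 in hSTAT5B (31 without WT replicate 2) and 18 to 24 in hSTAT5BN642H. Exon coverage of Stat5b over WT in hSTAT5B was 1.70 when scaled to the introns of the gene and 1.54 to 1.69 with libraries left out, and in hSTAT5BN642H 2.29 when scaled to introns. For Stat5a in hSTAT5BN642H it was 3.91 over CpGs listed in all libraries and 5.99 when scaled to introns, where hSTAT5BN642H replicate 1 is low. The methylated share at CpGs above WT was 96.1% in hSTAT5B and 97.4% in hSTAT5BN642H as an unweighted mean, 98.3% and 99.2% for the reads over WT, and 98.5% and 98.7% at 3 times WT, with 94.5% to 97.4% and 96.3% to 98.1% when libraries were left out. The cause of these shifts was not tested.

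Counts of limma calls were 0 for coverage under 15 alternatives and 0 for methylation under 12 alternatives in each contrast. The 16 differences for single features of Stat5a and Stat5b kept their side of the threshold in all 198 alternatives, with a lowest adjusted p of 0.380 from limma. The sign turned in 13. For coverage of Stat5b between hSTAT5BN642H and hSTAT5B these were -0.073 with median-of-ratios scaling, and a range of -0.24 to 0.34 with libraries left out. The range was -0.17 to 0.16 for Stat5a coverage. For methylation the ranges with a turned sign were -0.38 to 0.57 for Stat5b exons in hSTAT5BN642H against hSTAT5B, -0.55 to 0.15 and -0.083 to 0.40 for Stat5a and Stat5b introns in hSTAT5BN642H against WT, -0.35 to 0.34 and -0.43 to 0.051 for the same in hSTAT5B against WT, -0.14 to 0.87 for the Stat5a promoter in hSTAT5BN642H against WT, and -1.26 to 0.54 for the Stat5b promoter in hSTAT5B against WT.

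With a replicate block, the paired analysis also gave 0 calls for coverage and for methylation. Deviations in exon coverage of libraries with the same replicate number correlated at -0.05 to 0.04 between genotypes. Methylation was not compared in this way, and whether such libraries shared a preparation or run was not tested. At 16 of the 18 CpGs both WT libraries had at most 7 reads, so that ratios to WT there rest on few reads.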
